A study of Mus musculus with 4 samples.

Results

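The genes described here encode chromatin modifiers and architectural chromatin proteins. They are the genes on the array whose symbol begins with Hdac, Sirt, Dnmt, Smarc, Cbx, Hmga, Hmgb, Hmgn, Kdm, Kmt, Kat, Ezh, Suz12, Eed or Chd with a number, without Hmgb pseudogenes. The rule found 55 of the 8220 genes measured. It reads only symbols, but where a gene has several probe sets, the brightest on average stands for it. Expression was followed in mouse cells that were cultured from bone marrow along the path to dendritic cells, which present antigen to T cells. The groups were progenitors, which the labels describe as amplified in vitro, cells after 7 days of differentiation, cells after 10 days, and cells after 10 days stimulated with TNFalpha for 16 hours. The labels name no mouse strain, genotype or sort. There was 1 array per group and no replicate, so every difference is one between 2 arrays and no test was possible. The labels do not say how many mice or cultures stand behind an array.

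DNA in the nucleus is wrapped on histones, and the proteins in this set write, erase and read marks on histones or DNA, move nucleosomes, or bend and compact the fibre. Some of them, such as the maintenance DNA methyltransferase Dnmt1, act at replication forks and are known to be abundant in dividing cells. Others, such as Polycomb repressive complex 2, keep genes of other lineages silent while a progenitor differentiates. Myeloid progenitors divide rapidly, and dendritic cells largely leave the cell cycle as they differentiate.

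Levels are the deposited probe-set intensities, scaled so that the 75th percentile is the same on every array. Values under 428 units, the 60th percentile of all scaled values, were raised to that floor before a ratio was taken. A fold against such a value is a lower bound, written "at least", and no ratio was formed where both arrays lay at or under 428 units. The call rule was a difference of at least 2-fold between 2 arrays. For want of replicates, the size of a ratio was set beside how far 2 probe sets of the same gene disagree about it. The SD of that disagreement in log2 units was 0.62 (373 genes) from progenitor to day 7, 0.71 (370 genes) from day 7 to day 10, 0.81 (343 genes) over the whole span to day 10, and 0.56 (369 genes) for TNF. This is an error of the probe sets and leaves out the spread between cultures. It is taken from a difference of 2 ratios and carries the error of both. A single ratio within this SD is therefore not shown to be probe-set error.

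Of 11 dendritic cell markers 10 were at least 2-fold higher at day 10 than in progenitors, and Flt3, at 1972, 805, 517 and 614 units, was 3.81-fold lower. All 11 were above 428 units from day 7 on, against 3 of 11 in progenitors, and the summed level was 6112 in progenitors, 88686 at day 7, 353282 at day 10 and 371420 with TNF. The 7 progenitor and primary granule markers summed to 106876, 19179, 3583 and 2578 in the same order, although Cd34 lay under 428 units on every array and Kit, at 647, 1308, 1362 and 1624 units, was lowest in progenitors. Granulocyte markers were bright in the first 3 groups: the 7 measured summed to 116303 in progenitors, 105903 at day 7 and 141730 at day 10, against 17061 with TNF. The 8 macrophage markers, several of which dendritic cells also express, summed to 10218, 61158, 135329 and 93279, with C1qa, C1qb and C1qc under 428 units from day 7 on. The 6 mast cell and eosinophil markers summed to 6117, 9013, 13066 and 5423, with 2 to 4 above 428 units on an array. The eosinophil granule genes Prg2 (2018, 4619, 8950 and 3356 units) and Epx (406, 3137, 2986 and 1273) were higher at day 10 than in progenitors, 4.43-fold and at least 6.98-fold, and lower with TNF than at day 10, 2.67-fold and 2.35-fold. Cpa3 (1638, 386, 435 and 423 units) and Mcpt8 (1734, 546, 519 and 252) went the other way. They were 3.76-fold and 3.34-fold lower at day 10 than in progenitors. The mast cell receptor genes Fcer1a and Ms4a2 were under 428 units throughout. Erythroid (5 measured) and B cell (4) lists had 1 or 2 markers above 428 units on an array, T and NK cell markers (7) 0 or 1, and stromal markers (6) none. Of 10 genes listed as markers of other organs, 1 or 2 were above it, namely Mbp (1198, 1207, 1724 and 1989 units) and Ttr (603, 533, 512 and -78). In such bulk samples fewer cells of a type and less RNA per cell cannot be told apart. Probe sets for 9 spiked bacterial transcripts were 2.83-fold higher at day 10 than at day 7 in the median, 2.27-fold higher than in progenitors, and 1.41-fold lower with TNF than at day 10. Genes with a mean level over 16000 units had a median log2 ratio of 1.19 for day 10 against day 7. Those from 4000 to 16000 units, where bright chromatin genes such as Chd4 lie, had 0.14, and those from 1000 to 4000 units 0.00. For day 10 against progenitor these medians were 1.40, 0.22 and -0.04. No chromatin gene had a mean over 16000 units, and the part of this shift in single ratios was not tested.

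Of the 55 chromatin genes, 39 lay above 428 units on at least 1 array (70.9%, against 57.6% of all genes), and 16 lay under it on all 4, with levels from -509 to 420 units. Those 16 were Cbx2, Cbx7, Chd1l, Hdac2, Hdac3, Hmga2, Hmgb4, Kat2a, Kat8, Kdm1a, Kdm5a, Kdm5b, Kdm5d, Sirt1, Smarca2 and Smarcad1, and nothing can be said of their differences. A level under the floor does not show that a gene was silent.

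The largest contrast lay between the progenitor and day 10. Of 38 chromatin genes above 428 units on at least 1 of those 2 arrays, 13 were at least 2-fold lower at day 10, which is 34.2%, where 14.8% of all 4460 such genes were lower. Another 5 were at least 2-fold higher, or 13.2%, where 17.3% of all genes were. The 13 were Hmgb3, Cbx5, Hmgb2, Dnmt1, Smarcc1, Cbx3, Hmgn5, Chd7, Kmt5a, Ezh2, Suz12, Eed and Kat2b, and the 5 were Dnmt3a, Sirt2, Ezh1, Kdm3a and Kmt5c, the last by 1 of its 2 probe sets (log2 ratio -0.23 by the other). The median log2 ratio of the 38 was -0.23, beside 0.02 over all genes, and 20 of the 38 differed less than 2-fold. Of these 20, Kmt2a and Smarca5 passed 2-fold by their second probe set, with log2 ratios of 1.75 and -1.88.

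**Figure D1:**
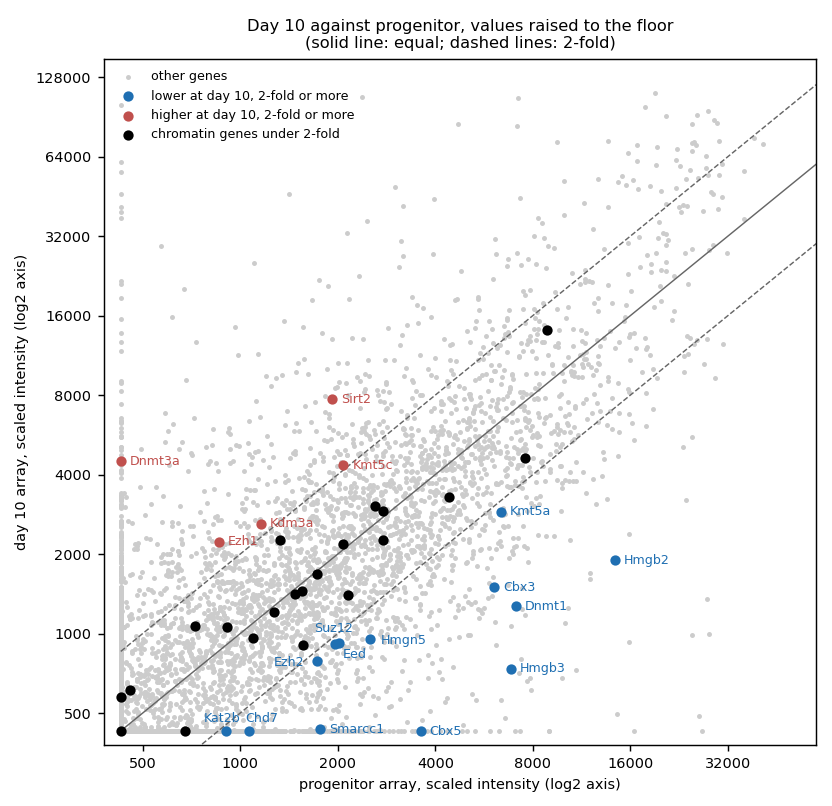
Scaled intensity of each gene on the progenitor array (x axis) and the day 10 array (y axis), both on log2 axes, with values under the floor of 428 units drawn at it; grey points are other genes, coloured points the chromatin genes past 2-fold and black points the remaining chromatin genes. The 13 lower genes reach from Kat2b near the 2-fold line to Hmgb3 and Cbx5, and Dnmt3a lies at the floor in progenitors and at 4507 units at day 10.

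More genes passed 2-fold downward in the second step than in the first. From progenitor to day 7, 2 of 38 chromatin genes were at least 2-fold lower (9.72% of all genes were) and 3 were higher (10.5% of all genes were). The 2 lower genes were Cbx5 and Hmgb3, and the 3 higher ones Sirt2, Kdm6a and Dnmt3a. From day 7 to day 10, 7 of 38 were lower, or 18.4% beside 4.65% of all genes, and 2 were higher, Dnmt3a and Kmt5c, beside 7.26% of all genes. The 7 were Hmgb2, Dnmt1, Cbx3, Hmgb3, Smarcc1, Cbx5 and Eed. With TNF, 1 of 37 was lower than at day 10, Dnmt1, where 5.15% of all genes were, and 0 were higher, where 4.71% of all genes were. The medians were -0.19, -0.17 and -0.02 for the 3 steps, beside -0.07, 0.05 and -0.04 over all genes. Neighbouring comparisons share an array, so their ratios are not independent of each other.

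**Figure D2:**
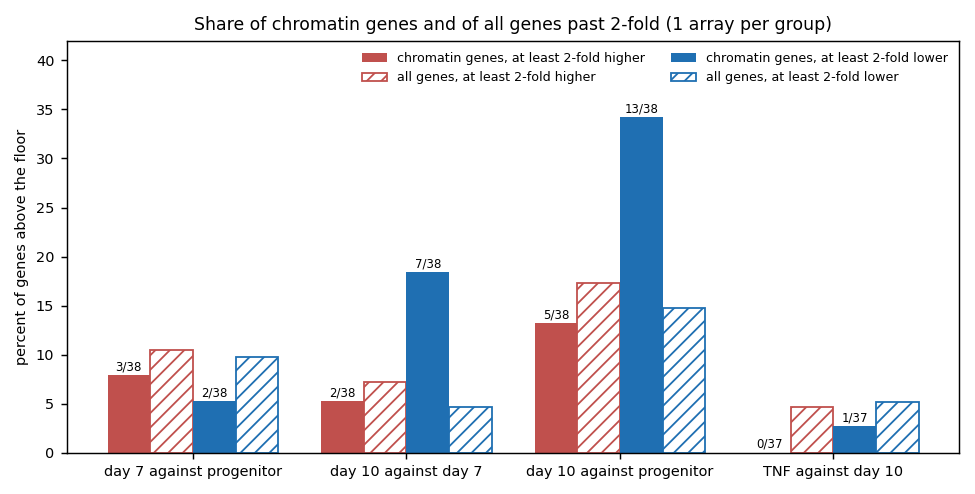
Percent of genes above the floor that differed at least 2-fold in each comparison (y axis, from 0), for the chromatin genes (filled bars, with counts above them) and for all genes (hatched bars), with higher genes in red and lower genes in blue. The chromatin genes exceed all genes among the lower genes of day 10 against day 7 (7 of 38) and of day 10 against progenitor (13 of 38), and are under all genes in the other 6 pairs of bars.

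High mobility group proteins bind DNA or nucleosomes without reading sequence, and bend or loosen the fibre. Hmgb2, a DNA-bending protein abundant in dividing cells, was at 14296 units in progenitors, 8610 at day 7, 1894 at day 10 and 1107 with TNF. Its level was lower on each successive array, and day 10 was 7.55-fold under the progenitor. The log2 ratio of -2.92 became -3.21 after quantile normalization, and 4.54-fold of the difference lay between day 7 and day 10. The only Hmgb2 probe set has a name that marks dropped probe selection rules.

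Hmgb3, a relative known from haematopoietic progenitors, was at 6839, 2130, 735 and 846 units in progenitors, day 7, day 10 and TNF. It was already 3.21-fold lower at day 7 and 9.31-fold lower at day 10, so that both steps contributed about equally on the log2 scale (-1.68 and -1.54). Hmgn5, a nucleosome-binding protein, was at 2513, 1641, 955 and 899 units, 2.63-fold lower at day 10 than in progenitors. Hmgn1, a nucleosome-binding protein of the same family, was at 7579, 5197, 4627 and 3261 units and did not reach 2-fold at day 10 (log2 ratio -0.71, within the probe-set SD of 0.81). All 4 high mobility group genes above the floor were thus highest in progenitors, as were 35.6% of all genes. Of these 4, 3 were at least 2-fold lower at day 10 than in progenitors, beside 14.8% of all genes. Hmga2 and Hmgb4 lay under the floor throughout, and no probe set names Hmgb1 or Hmgn2 alone.

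The DNA methyltransferases moved in opposite directions. Dnmt1, which copies methylation onto the new strand after replication, was at 7076 units in progenitors, 4403 at day 7, 1268 at day 10 and 543 with TNF. It was lower on each successive array: 5.58-fold at day 10 against progenitor, 3.47-fold at day 10 against day 7, and another 2.33-fold with TNF. Dnmt3a, which sets methylation on unmethylated DNA, was at 394, 957, 4507 and 2328 units. It was at least 10.5-fold higher at day 10 than in progenitors, where it lay under the floor, and 4.71-fold higher at day 10 than at day 7. With TNF it was 1.94-fold lower than at day 10, a log2 ratio of -0.95 beside a probe-set SD of 0.56, just short of 2-fold. The other Dnmt1 probe set and both other Dnmt3a probe sets lay under 428 units on every array, so neither gene has a second measurement.

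HP1 proteins bind methylated histone H3 in heterochromatin through their chromodomain. Cbx5, the gene of HP1 alpha, was at 3601 units in progenitors, 981 at day 7, 300 at day 10 and 330 with TNF. It was 3.67-fold lower at day 7 and at least 8.41-fold lower at day 10, when it lay under the floor. Its second probe set showed the same order, at 1444, 635, 454 and 558 units and a log2 ratio of -1.67 for day 10 against progenitor. Cbx3, the gene of HP1 gamma, was at 6079, 4766, 1497 and 2167 units. It stayed within 2-fold at day 7 (log2 ratio -0.35) and was 4.06-fold lower at day 10 than in progenitors. Cbx1, the gene of HP1 beta, lay near the floor at 458, 380, 613 and 834 units and did not reach 2-fold in any comparison. Its second probe set was highest in progenitors, at 491 units, and under the floor elsewhere, so the direction for Cbx1 is uncertain.

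Polycomb repressive complex 2 methylates histone H3 to silence genes, with Ezh1 or Ezh2 as its catalytic subunit, Suz12 as scaffold and Eed as reader of the mark. Ezh2, the subunit of dividing cells, was at 1727 units in progenitors, 889 at day 7, 787 at day 10 and 1026 with TNF. Ezh1, known from resting cells, was at 861, 1599, 2228 and 2345 units. Their orders were opposite over the first 3 arrays, while both were higher with TNF than at day 10 by less than the probe-set SD. Ezh2 was 2.20-fold lower and Ezh1 2.59-fold higher at day 10 than in progenitors, and for both most of the log2 difference was present at day 7 (-0.96 of -1.13 and 0.89 of 1.37).

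Like Ezh2, the shared subunits were lower at day 10 than in progenitors, but Eed not until after day 7. Suz12 was at 2022, 1267, 924 and 1255 units, 2.19-fold lower at day 10 than in progenitors. A second of 3 Suz12 probe sets was at 975, 371, 225 and 531 units, with a log2 ratio of -1.19 against the floor. Eed was at 1964, 1886, 916 and 1368 units, level through day 7 and 2.06-fold lower at day 10 than at day 7. With TNF, Ezh2, Suz12 and Eed were 0.38, 0.44 and 0.58 above day 10 on the log2 scale, which is within or near the probe-set SD of 0.56. All 3 differed from the progenitor by little more than 2-fold at day 10, against an SD of 0.81 on the log2 scale.

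**Figure D3:**
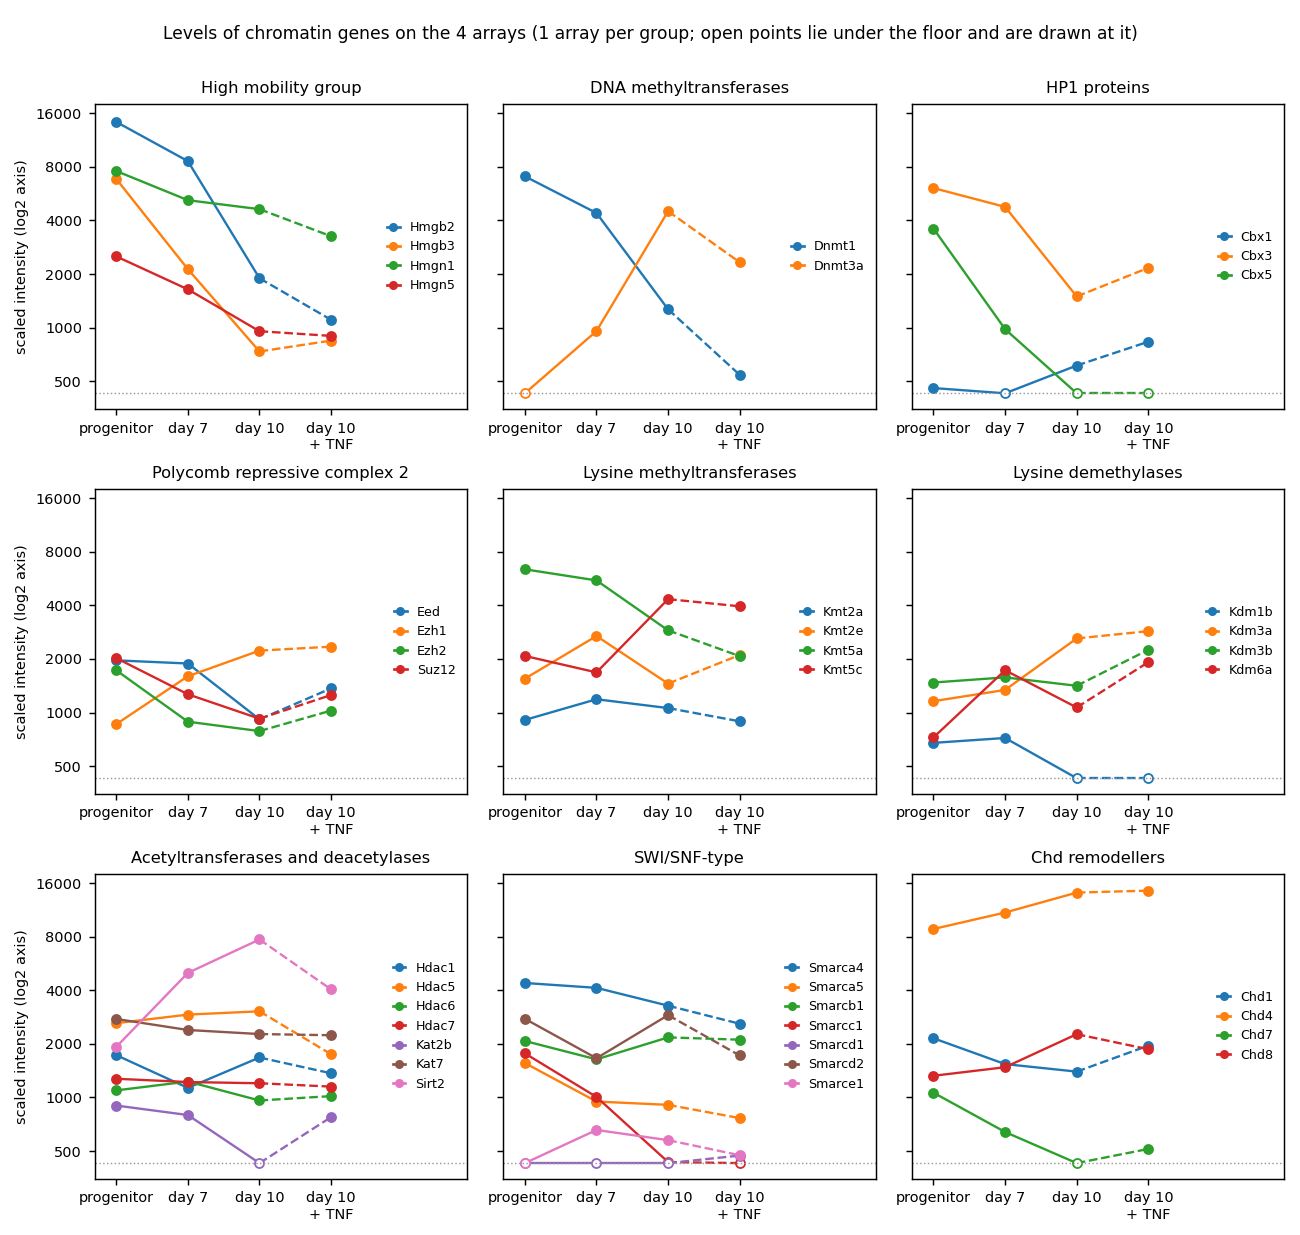
Scaled intensity (y axis, log2) on the 4 arrays (x axis) for the 39 chromatin genes above the floor on at least 1 array, in 9 panels by role; solid lines join progenitor, day 7 and day 10, dashed lines join day 10 to day 10 with TNF, the dotted line is the floor of 428 units, and open points lie under it. The lines of Hmgb2, Dnmt1 and Cbx3 drop between day 7 and day 10, while those of Dnmt3a, Ezh1 and Sirt2 run the opposite way.

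Lysine methyltransferases gave mixed values. Kmt5a, which puts the first methyl group on a lysine of histone H4 in dividing cells, was at 6374 units in progenitors, 5522 at day 7, 2895 at day 10 and 2074 with TNF, 2.20-fold lower at day 10 than in progenitors. Kmt5c, which adds further methyl groups at that residue, was at 2080, 1681, 4335 and 3951 units by its brightest probe set, 2.58-fold higher at day 10 than at day 7. That probe set is named as shared within a gene family, and the other one, at 1472, 1190, 1258 and 893 units, gave log2 ratios of 0.08 for day 10 against day 7 and -0.23 for day 10 against progenitor. The higher level of Kmt5c therefore rests on 1 probe set. Kmt2a, the mixed-lineage leukaemia gene, stayed within 2-fold at 909, 1188, 1060 and 893 units. Its second probe set was at 464, 576, 1557 and 1076 units, with log2 ratios of 1.43 for day 10 against day 7 and 1.75 for day 10 against progenitor. The reading of Kmt2a therefore depends on the probe set. Kmt2e, of the same family, was highest at day 7, at 1550, 2690, 1454 and 2106 units, within 2-fold on all 4 arrays.

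Among lysine demethylases Kdm3a and Kdm6a passed 2-fold. Kdm3a, which removes methyl groups from histone H3, was at 1159, 1340, 2608 and 2865 units, and both day 10 arrays lay above both earlier ones. It was 2.25-fold higher at day 10 than in progenitors. Kdm6a, also called UTX, which removes the Polycomb methyl mark, was at 725 units in progenitors, 1728 at day 7, 1068 at day 10 and 1919 with TNF. Its level was 2.38-fold higher at day 7, and the later arrays lay between 1068 and 1919 units without a steady direction. Kdm3b, a relative of Kdm3a, lay between 1414 and 1576 units on the first 3 arrays and at 2251 with TNF, 1.59-fold above day 10. Kdm1b was at 676, 720, 414 and 394 units, close to or under the floor, and 4 demethylase genes were under it throughout.

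Histone deacetylases remove acetyl groups, and their levels moved little. Hdac7 had the narrowest span of them, from 1151 to 1274 units, and Hdac6, which acts on tubulin, spanned 962 to 1229. Hdac1, a class I enzyme of nuclear corepressor complexes, was at 1729, 1132, 1677 and 1367 units. Hdac5, a class II enzyme, was at 2613, 2920 and 3047 units and then 1749 with TNF, 1.74-fold lower than at day 10 and past the probe-set SD of 0.56 with a log2 ratio of -0.80. All 4 stayed under 2-fold between their highest and lowest array.

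Sirt2, an NAD-dependent deacetylase found largely in the cytoplasm, was the exception among deacetylases. It was at 1924 units in progenitors, 5007 at day 7, 7713 at day 10 and 4045 with TNF. The level was 2.60-fold higher at day 7 and 4.01-fold higher at day 10 than in progenitors, then 1.91-fold lower with TNF. Of the acetyltransferases, Kat7, which acts in replication licensing, stayed between 2236 and 2760 units. Kat2b, also called PCAF, was at 901, 797, 311 and 776 units, at least 2.10-fold lower at day 10 than in progenitors. With TNF it was at least 1.81-fold above day 10, so the low value was that of the day 10 array alone.

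SWI/SNF complexes use an ATPase to slide or eject nucleosomes. Smarcc1, a core subunit also called BAF155, was at 1769 units in progenitors, 1007 at day 7, 434 at day 10 and 410 with TNF. At day 10, where it lay just above the floor, Smarcc1 was 4.08-fold lower than in progenitors. It was the 1 gene of 6 with a ratio in this group to pass 2-fold, where 14.8% of all genes were lower and 17.3% higher. The ATPase gene Smarca4, also called BRG1, was at 4394, 4127, 3277 and 2594 units, lower on each array but within 2-fold. Smarcb1, another core subunit, spanned 1637 to 2175 units.

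Smarcd2, a subunit known for its role in granulocyte development, was at 2766, 1661, 2900 and 1721 units and alternated within 2-fold. Smarca5, the ISWI ATPase, was at 1561, 949, 909 and 766 units, a log2 ratio of -0.78 for day 10 against progenitor. Its second probe set was at 1701, 1232, 463 and 640 units and a ratio of -1.88, so the size of this difference depends on the probe set. Smarce1 and Smarcd1 lay close to the floor, with highest levels of 657 and 472 units.

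Chd remodellers are ATPases with chromodomains. Chd7, needed in many developmental lineages, was at 1064 units in progenitors, 640 at day 7, 384 at day 10 and 514 with TNF, at least 2.48-fold lower at day 10 than in progenitors. Chd4, the ATPase of the NuRD complex, was at 8833, 10926, 14142 and 14502 units. Its log2 ratio of 0.68 for day 10 against progenitor became 0.37 after quantile normalization, its only probe set is named as shared within a gene family, and spiked controls stood higher at day 10 too (above). Chd8 was at 1324, 1479, 2267 and 1866 units and Chd1 at 2150, 1540, 1397 and 1954, both within 2-fold.

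The arrays were also put in order for each gene, whatever the size of the difference. Of 39 chromatin genes above the floor on at least 1 array, 20 were highest in progenitors (51.3%, beside 35.6% of 4737 genes). Another 5 were highest at day 7 (12.8%, beside 13.8%), 7 at day 10 (17.9%, beside 23.9%) and 7 with TNF (17.9%, beside 26.7%). The 20 highest in progenitors include Hdac1, Hdac7, Kat7 and Chd1, whose differences stayed under 2-fold. In 19 of 39 (48.7%, beside 24.2% of all genes) both day 10 arrays lay below both earlier arrays, and in 8 (20.5%, beside 26.3%) they lay above both. Those 8 were Cbx1, Chd4, Chd8, Dnmt3a, Ezh1, Kdm3a, Kmt5c and Smarcb1. Across all 4 arrays 18 of 39 genes (46.2%, beside 55.3% of all genes) spanned under 2-fold, among them Hdac1, Hdac5, Hdac6, Hdac7, Kat7, Smarca4, Smarcb1 and Chd1.

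TNF for 16 hours gave few differences in this set against day 10. Dnmt1 was the 1 gene past 2-fold, and Dnmt3a, Sirt2, Hdac5, Hmgb2 and Smarcd2 had log2 ratios from -0.95 to -0.75. On the positive side Kat2b, Kdm6a, Kdm3b and Eed had ratios from 0.58 to 0.86. Granulocyte markers differed far more between these arrays, with 6 of 7 at least 2-fold lower and a median log2 ratio of -2.94, and the eosinophil genes Prg2 and Epx were lower too. The part of these cells in the differences of chromatin genes was not tested. Proliferation genes were already low at day 10, with a median log2 ratio of -0.28 for TNF against day 10 over 14 genes and 0 past 2-fold. Of the 27 measured, 12 lay above 428 units at day 10 and 10 with TNF. Values raised to the floor left little room for lower ratios, so the 0 says little about a further decrease.

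Proliferation genes differed more, and earlier, than the chromatin genes. Of 26 proliferation genes with a ratio, 26 were at least 2-fold lower at day 10 than in progenitors, beside 14.8% of all genes. Their median log2 ratio was -2.71, and their summed level was 138246 in progenitors, 48836 at day 7 and 14682 at day 10. Mcm5, a subunit of the replicative helicase, was at 15849, 4069 and 932 units, 17.0-fold lower. Their part in the lower levels of chromatin genes was not tested. At day 7, 23 of 26 proliferation genes were already at least 2-fold lower than in progenitors, beside 2 of 38 chromatin genes and 9.72% of all genes.

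Other chromatin genes outside the naming rule were read from 4 lists. Over all genes, 14.8% were at least 2-fold lower and 17.3% higher at day 10 than in progenitors. Among histone chaperones and replication-coupled factors, 13 of 19 were at least 2-fold lower and 1 higher at day 10 than in progenitors (median -1.20). Uhrf1, which recruits Dnmt1 to replicated DNA, was at 3844, 1264, 508 and 313 units, 7.57-fold lower at day 10. The histone H3 and H4 chaperone gene Asf1b was 6.24-fold lower, and Hira, a chaperone that works outside replication, was the higher gene, at 375, 765, 2789 and 941 units and at least 6.52-fold. Among condensin, cohesin, lamin and other architectural genes 10 of 15 were lower and 1 higher (median -1.35), with the condensin gene Smc2 at least 8.80-fold, Top2a at least 8.29-fold and Ncaph at least 3.70-fold lower. Top2a and Pcna stand in the proliferation list as well.

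The other lists had medians closer to 0, and their shares of lower genes were near or under the 14.8% of all genes. Among Polycomb, methyltransferase and reader genes outside the rule 2 of 14 were lower and 2 higher (median -0.44). The arginine methyltransferase gene Prmt1 was 5.21-fold lower and the corepressor gene Trim28 2.58-fold lower, while Rnf2, the ubiquitin ligase of Polycomb repressive complex 1, was 3.04-fold higher. Among acetyltransferases, corepressors and remodeller subunits 2 of 17 were lower and 0 higher (median -0.30), namely the ATPase gene Ruvbl1, 4.02-fold, and Actl6a, a SWI/SNF subunit of progenitor cells, 3.23-fold. Ing1, at 1.67-fold lower, stayed within 2-fold.

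**Figure D4:**
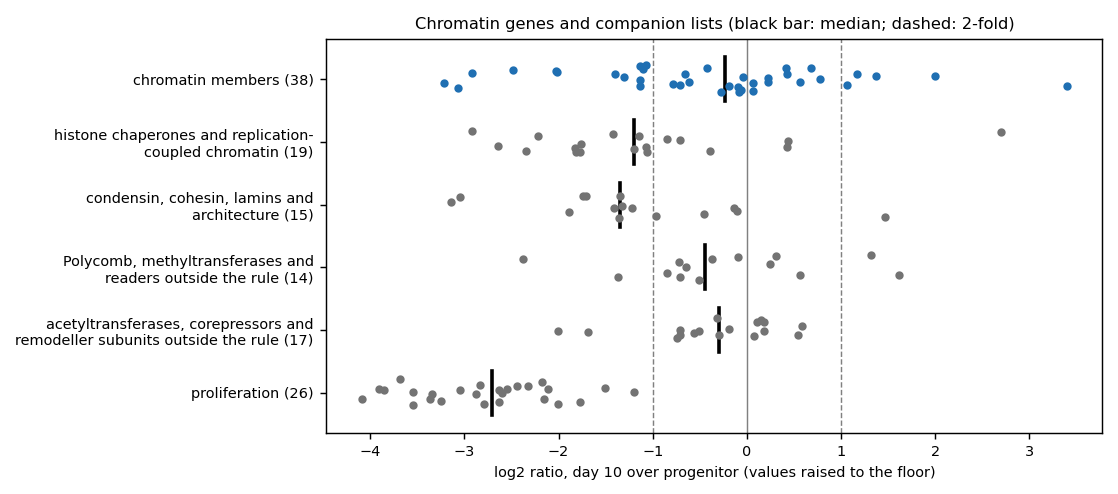
Log2 ratio of day 10 over progenitor (x axis, values raised to the floor) for each gene with a ratio, in rows for the 38 chromatin genes (blue) and 5 other lists (grey, numbers of genes in brackets); black bars are medians, dashed lines mark 2-fold, and vertical scatter within a row has no meaning. Proliferation genes lie wholly below -1, with a median of -2.71, chaperones and condensin-type genes have medians of -1.20 and -1.35, and the chromatin genes spread from -3.22 to 3.40 around a median of -0.23.

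Since several of the lower genes are known cell cycle genes, their promoters were read for letters bound by cell cycle regulators. RefSeq windows of GRCm38.p6, 250 bases before to 50 after a start, were found for 46 of the 55 genes, 63 windows in all. Searched on both strands, they were the E2F letters TTTCCCGC, TTTGGCGC or TTTCGCGC, the cell cycle homology region letters TTTGAA, and the CCAAT box letters CCAAT. An E2F match stood in 4 of 12 lower genes with a window (Cbx3, Dnmt1, Ezh2 and Suz12), 1 of 5 higher genes (Kmt5c) and 0 of 15 genes under 2-fold, beside 3.77% of 6550 genes on the array. The letters TTTGAA stood in 6 of 12 lower genes (Dnmt1, Eed, Hmgb2, Hmgb3, Kat2b and Suz12), 0 of 5 higher and 2 of 15 under 2-fold, beside 15.7%. CCAAT stood in 10 of 12, 3 of 5 and 6 of 15, beside 42.5%. The GC box GGGCGG, which is common in promoters, stood in 8 of 12, 3 of 5 and 14 of 15, beside 62.6%. Genes with several windows, such as Dnmt1, had more chances of a match, and a match is a description of the letters, not of binding.

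For the 4 lower genes and Kmt5c, which carry the counts among lower and higher genes, 1 stretch each with an E2F match is shown. The stretches run 5′ to 3′ on the gene's strand, with the E2F letters in capitals. They lie at chr6:47595009-47595038 (minus strand, first base of the match 4 bases into the transcript) for Ezh2, chr11:79992863-79992918 (plus, match at -219) for Suz12, chr9:20952811-20952866 (minus, -219) for Dnmt1, chr6:51470424-51470479 (plus, -168) for Cbx3 and chr7:4739998-4740053 (plus, -105) for Kmt5c. In Dnmt1 and Kmt5c the capitals are the reverse complement of the E2F letters. Dnmt1 held a second E2F match, TTTGGCGC on its own strand from base 34 of the transcript (chr9:20952574-20952601). The Suz12 stretch also holds TTCAAA, the reverse complement of TTTGAA, in lower case.
Ezh2: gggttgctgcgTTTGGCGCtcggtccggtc
Suz12: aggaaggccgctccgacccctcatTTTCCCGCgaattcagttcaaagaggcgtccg
Dnmt1: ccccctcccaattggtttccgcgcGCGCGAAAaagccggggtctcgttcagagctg
Cbx3: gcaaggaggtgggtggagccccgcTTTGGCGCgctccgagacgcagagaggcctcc
Kmt5c: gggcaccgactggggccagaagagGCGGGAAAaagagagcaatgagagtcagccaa

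Hmgb2, Hmgb3 and Eed had no E2F match but held the letters TTTGAA, and 1 match each is shown in capitals. The stretch of Hmgb2 lies at chr8:57511789-57511842 (plus strand, match at -30), that of Hmgb3 at chrX:71555771-71555824 (plus, -122), and that of Eed at chr7:89981144-89981197 (minus, -197). Hmgb2 and Eed each held a second match on the opposite strand, at -218 and -183, and that of Eed stands in lower case in its stretch.
Hmgb2: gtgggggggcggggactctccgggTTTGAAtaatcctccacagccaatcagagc
Hmgb3: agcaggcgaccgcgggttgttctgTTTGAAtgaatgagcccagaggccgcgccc
Eed: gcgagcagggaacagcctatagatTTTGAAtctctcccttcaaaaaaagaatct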

How the data were processed

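The deposited data are linear intensities of 12654 probe sets on 4 arrays. They come from software and settings not given in the sources used here. Between 22.8% and 24.3% of the deposited values of an array lie below 0, as after subtraction of a background. Gene symbols came from the platform annotation (10298 with 1 symbol, 363 with several, 1993 with none). For 10279 of those with 1 symbol, the RefSeq symbol of the Entrez identifier was used, whether or not it differed. Each gene is read by the probe set with the highest mean, without the 66 control probe sets. Arrays were scaled to a common 75th percentile (factors 0.962 to 1.05), raised to a floor of 428 units and converted to log2 with Python 3.11.15, numpy 2.4.6 and pandas 2.3.3. The code was tested on simulated data. Every chromatin gene above the floor on any array is named; companion genes are the 3 of each list with the largest ratio of day 10 against progenitor. The genes and lists were chosen with earlier results of these data known. Protein sequences were not used here.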

Additional observations from a re-analysis of the deposited data

Results flagged for a closer look

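Signal also lay in probe sets that the comparisons do not use. There are 3 probe sets whose annotation joins a symbol of the naming rule with other symbols, so no gene can be named from them, and 2 of them lay above 428 units. One joins an Hmgn symbol with 3 others and was at 13461 units in progenitors, 8417 at day 7, 4556 at day 10 and 3422 with TNF, 2.95-fold lower at day 10 than in progenitors. Another joins an Hmgb symbol with 1 other and was at 2697, 1308, 1081 and 997 units, 2.50-fold lower. The Cbx probe set of this kind lay between 209 and 352 units.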

How the results depend on the processing

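Of the counts and medians reported, those for day 10 against progenitor kept 11 to 14 lower genes under every alternative but the 3-fold rule, which left 6, and quantile normalization moved none of the counts by over 1.5 times. With the floor at the 40th percentile the higher genes were 5 for day 10 against day 7, 8 for day 10 against progenitor and 2 for TNF, the lower genes with TNF 2, and the median for day 10 against progenitor -0.13. With the floor at the 70th percentile, 0 genes were lower with TNF. Taking the median of all probe sets of a gene gave 0 higher genes for day 10 against day 7, 3 for day 10 against progenitor, and 0 lower with TNF. Without shared probe sets 1 gene was higher for day 10 against day 7, and Kmt5c turned to -0.23 for day 10 against progenitor. Values as deposited gave a median of -0.30 for day 10 against day 7, and the median over all genes moved too, from 0.05 to -0.07. The 3-fold rule gave 0 higher genes at day 7, 1 higher and 3 lower for day 10 against day 7, 2 higher for day 10 against progenitor, and 0 lower with TNF. The causes were not tested, beyond fewer genes passing a stricter rule or floor. Of 33 single ratios past 2-fold, 33 remained so after quantile normalization and 27 at the 70th percentile floor. Leaving out an array and a paired fit were not possible, since each group has 1 array. No paired analysis was possible because there are no replicates.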
